A study of Mus musculus with 4 samples.

Results

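Ccl3, Ccl4 and Ccl5 are the CC chemokine genes that effector T cells transcribe most often, and their transcripts were read in single CD4 T cells of 2 mice. The 3 genes were chosen by name and are 3 of the 32285 genes in the expression matrices. They were read in 5993 cells of mouse 1 and 6332 cells of mouse 2 with 500 or more genes detected, no more than 10% of UMIs from mitochondrial genes, and exactly 1 T cell receptor beta (TRB) contig. A UMI is a molecular tag that marks 1 captured RNA molecule.

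The study's title asks about CD4 T cells that carry Vβ3 and about their deletion by an endogenous mammary tumour virus. CD4 T cells from the spleens of 2 B6.H2g7 donors (strain B6.NOD-(D17Mit21-D17Mit10)/LtJ, 6 to 8 weeks old), a C57BL/6 congenic line with the NOD major histocompatibility region, were purified on magnetic columns. Each transfer held 5000000 cells and went into a NOD.Rag1null host, which lacks T and B cells of its own and so gives the donor cells an empty lymphoid compartment. After 14 days live CD4+ TCRβ+ cells were sorted from each host spleen, and a 5′ expression library and a receptor library were made per host. The labels do not say whether the donors' cells were pooled, and there was no group without transfer, so every comparison is between classes of cells of the same 2 mice, and p-values measure only the spread between these sums.

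The classes were the clonotype size (1, 2 to 4, 5 to 19, or 20 or more kept cells of a mouse with the same TRB V gene, J gene and CDR3 nucleotides), the V gene class (Vβ3, which is TRBV26; Vβ20, which is TRBV23; or any other V gene) and the Foxp3 status (at least 1 Foxp3 UMI, or none). Foxp3 encodes the lineage factor of regulatory T cells. The kept cells held 38725969 UMIs in mouse 1 and 44796902 in mouse 2, with medians of 5596 and 6219.5 UMIs per cell. To check the sort, 8 genes were summed (Cd3d, Cd3e, Cd3g, Cd4, Trbc1, Trbc2, Cd2 and Cd28). At least 2 UMIs over these were found in 99.98% of kept cells of each mouse, which does not show each gene in each cell. Cd8a had no UMI in either mouse. Cd8a and Cd8b1 together stood at 9.09 and 8.55 UMIs per 1000000, with 2 or more UMIs in 0.734% and 0.963% of cells. Of the barcodes, 166 occurred in both libraries and 58 were kept in both, of which 0 shared a CDR3. Levels are given as UMIs of the gene per 1000000 UMIs of a class (CPM), a scale on which every UMI marks a 5′ end, so the values are not divided by transcript length.

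Ccl3, Ccl4 and Ccl5 are small secreted proteins that attract monocytes, T cells and natural killer cells. Ccl3 and Ccl5 bind the receptor Ccr1. In T cells, Ccl3 and Ccl4 are known as genes switched on quickly by antigen receptor signals, whereas Ccl5 transcripts build up late in effector cells and persist in memory cells.

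The 3 genes lie in the CC chemokine cluster on mouse chromosome 11 (build GRCm38). Ccl3 spans 83647844 to 83649355 on the minus strand and Ccl4 spans 83662584 to 83664683 on the plus strand, so they point away from each other with start sites 13229 bases apart. Ccl5 spans 83525778 to 83530518 on the minus strand. Each has 3 exons in the annotation. Their coding sequences are 276, 276 and 273 bases long and were 68.1% identical between Ccl3 and Ccl4, 61.6% between Ccl3 and Ccl5 and 59.9% between Ccl4 and Ccl5. The 250 bases upstream of the RefSeq start of Ccl3 are shown (GRCm38.p6, 11:83649379-83649628, minus strand), with capitals at motif matches. The set of RefSeq promoters used held no entry for Ccl4 or Ccl5, so the promoters of the 3 genes could not be compared.

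Ccl3 promoter: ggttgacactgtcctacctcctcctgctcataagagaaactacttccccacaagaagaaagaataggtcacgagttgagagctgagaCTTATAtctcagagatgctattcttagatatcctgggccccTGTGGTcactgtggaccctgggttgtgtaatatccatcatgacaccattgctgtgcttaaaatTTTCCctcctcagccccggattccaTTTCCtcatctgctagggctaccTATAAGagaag

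Both strands were searched. GGAAA, the core letters bound by NFAT, matched 2 times and occurs in 55.6% of 32851 RefSeq promoters of this length. TATAAG matched 2 times and occurs in 6.65% of promoters, and TGTGGT, a Runx site, matched 1 time and occurs in 14.0%. No matches overlapped. TGANTCA (AP-1, in 6.75% of promoters), TATAAA (12.4%) and TCACACCT (a T-box site, 1.12%) had 0 matches, which says only that these letters are not in this window.

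Over all kept cells, Ccl3 stood at 360 CPM in mouse 1 and 380 CPM in mouse 2. Ccl4 stood at 1050 and 1011 CPM in mice 1 and 2, and Ccl5 at 11498 and 11018 CPM. The mice lay close together for each gene, with means of 370 ± 14.6 CPM for Ccl3, 1030 ± 28.1 CPM for Ccl4 and 11258 ± 339 CPM for Ccl5 (SD, n = 2). At least 1 UMI was found for Ccl3 in 22.3% (95% exact Clopper-Pearson interval 21.2 to 23.4) and 24.0% of cells, for Ccl4 in 30.5% and 29.0%, and for Ccl5 in 81.6% and 72.5%. With every cell thinned to 2500 UMIs, which left out 350 cells of mouse 1 and 173 cells of mouse 2 as too shallow, these shares were 15.9% and 17.1% for Ccl3, 23.1% and 22.2% for Ccl4, and 66.5% and 56.5% for Ccl5. All intervals here cover counting error only.

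A single Ccl5 UMI was also common in cells that should hold little of it. In cluster 1, a naive-like cluster by Igfbp4, Ly6c1 and Dapl1 that was made without the chemokine genes (382 and 552 cells, median 7285 and 8996 UMIs, against 5596 and 6219.5 UMIs over all kept cells), a Ccl5 UMI was found in 62.6% and 51.8% of cells, while the Ccl5 level was only 183 and 230.2 CPM. Ccl3 was found in 3.66% and 2.72% of these cells and Ccl4 in 7.33% and 7.25%. The share of cells with at least 10 UMIs, a limit set after seeing the data, was therefore read as well. It was 37.9% and 36.5% for Ccl5 over all kept cells, against 1.05% and 3.62% in cluster 1. For Ccl3 it was 4.32% and 5.48%, and for Ccl4 8.66% and 9.49%.

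Ccl3 and Ccl4 transcripts sat in few cells, and Ccl5 transcripts were spread more widely. The highest 1% of cells for each gene held 49.0% and 41.0% of all Ccl3 UMIs in mice 1 and 2, and 45.4% and 41.2% of all Ccl4 UMIs. For Ccl5 the highest 1% of cells held 11.1% and 10.8%. The highest single cell carried 425 and 308 Ccl3 UMIs, 998 and 826 Ccl4 UMIs, and 1382 and 1467 Ccl5 UMIs. Ccl3 and Ccl4 were found in the same cells: 75.5% and 76.7% of cells with a Ccl3 UMI also had a Ccl4 UMI, against 17.6% and 14.0% of cells without one. Depth was similar on both sides (median 5890.5 and 6193 UMIs against 5539 and 6234), and thinned cells gave 64.4% and 65.4% against 10.9% and 8.52%. All 3 genes were detected together in 16.7% and 18.2% of cells.

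Transcripts of all 3 chemokines rose with clonotype size. In clonotypes of 1, 2 to 4, 5 to 19 and 20 or more cells, Ccl3 stood at 112, 154, 695 and 829 CPM in mouse 1 and at 69.0, 194, 411 and 1214 CPM in mouse 2. Ccl4 stood at 428, 744, 1969 and 1883 CPM in mouse 1 and at 300.1, 689, 1161 and 2747 CPM in mouse 2. Ccl5 stood at 4011, 8576, 16319 and 26353 CPM in mouse 1 and at 2992, 6077, 12408 and 32307 CPM in mouse 2. Every step was upward in both mice except that from 5 to 19 to 20 or more cells for Ccl4 in mouse 1.

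**Figure D1:**
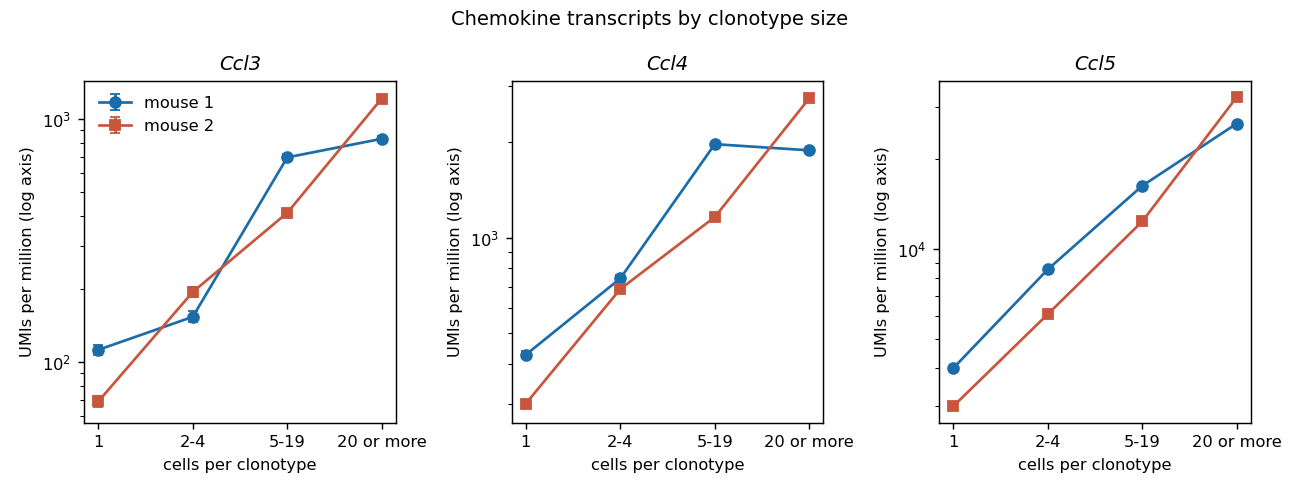
CPM (log axis) of each chemokine gene by number of cells per clonotype; circles are mouse 1, squares mouse 2, and bars are 95% Poisson intervals of the counts, mostly smaller than the symbols. In clonotypes of 20 or more cells Ccl5 reaches 26353 and 32307 CPM, against 4011 and 2992 CPM in clonotypes of 1 cell.

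Clonotypes of 20 or more cells against those of 1 cell were higher by 3.56 for Ccl3 on the log2 scale (SE 0.32, adjusted p = 0.000152), by 2.74 for Ccl4 (SE 0.26, adjusted p = 0.000206) and by 3.13 for Ccl5 (SE 0.17, adjusted p = 2.23e-05), by edgeR's quasi-likelihood test on UMIs summed per mouse and class with the mouse as a block, adjusted by Benjamini-Hochberg over all 12233 genes tested. These are 11.8-fold, 6.70-fold and 8.77-fold differences. All 3 members rose, against 12.4% of all genes tested that were called higher. In mouse 1 alone the Ccl3 and Ccl4 differences were 2.87 and 2.14, and in mouse 2 alone 4.12 and 3.19, with no test, so the size of these folds rests on which mouse is read. Clonotypes of 5 to 19 cells against 1 cell were higher by 2.62, 2.11 and 2.05 for Ccl3, Ccl4 and Ccl5 (adjusted p = 0.0020, 0.0023 and 0.000396 in the same edgeR fit), where 12.2% of genes were called in either direction. Of clonotypes of 2 to 4 cells against 1 cell, only the Ccl5 difference of 1.05 passed (edgeR adjusted p = 0.0324), while Ccl3 and Ccl4 differed by 0.95 and 0.98 (adjusted p = 0.21 and 0.13); 0.826% of genes were called. Between 20 or more and 5 to 19 cells only Ccl5 passed again, at 1.09 (edgeR adjusted p = 0.0128; 3.53% of genes called), and between 5 to 19 and 2 to 4 cells none of the 3 passed (edgeR adjusted p = 0.091, 0.15 and 0.061; 0.253% of genes called).

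Shares moved with the levels. In clonotypes of 20 or more cells, 48.4% (exact interval 45.4 to 51.5) and 57.8% (55.2 to 60.3) of cells had a Ccl3 UMI, against 9.44% (8.29 to 10.7) and 8.86% (7.79 to 10.0) in clonotypes of 1 cell. At least 10 Ccl3 UMIs were found in 9.98% and 15.7% of cells of the largest clonotypes, against 1.29% and 0.928% of cells of the smallest. For Ccl4 these shares were 19.3% and 23.1%, against 3.34% and 3.40%, and for Ccl5 73.2% and 76.7%, against 18.6% and 16.2%. Cells of clonotypes of 20 or more, 18.2% and 23.9% of all kept cells, held 43.2% and 66.3% of all Ccl3 UMIs, 33.6% and 56.5% of Ccl4 UMIs and 43.0% and 60.9% of Ccl5 UMIs. Median depth was slightly lower in them (5434 and 5654 UMIs, against 5670 and 6541 UMIs in clonotypes of 1 cell).

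Summed genes of the natural killer cell and macrophage marker lists were also higher in the large clonotypes, and those of B cells and CD8 T cells were lower. The 8 natural killer cell genes of the marker list summed to 35.7 and 101 CPM in clonotypes of 20 or more cells, against 16.4 and 15.3 CPM in clonotypes of 1 cell, and Ncr1 and Klra8 among them were at 0 in all kept cells of mouse 1. The 10 macrophage genes summed to 50.4 and 74.6 CPM, against 27.2 and 19.8 CPM. The 4 B cell genes summed to 0.688 and 0.967 CPM, against 3.65 and 8.34 CPM, and the 2 CD8 T cell genes to 5.65 and 3.22 CPM, against 8.97 and 9.80 CPM. The 6 dendritic cell genes summed to 16.9 and 35.01 CPM, against 18.2 and 22.7 CPM, so the mice went opposite ways. Some listed genes also lead clusters of the kept cells described below, Klra3 and Klre1 cluster 6 and Cd68 cluster 8. Cluster 6 held 13.7% and 46.1% of cells of clonotypes of 20 or more, against 0.668% and 0.890% of those of 1 cell. Cluster 8 held 37.0% and 18.8%, against 5.72% and 4.49%. Which cells gave rise to the marker sums was not tested. Cells were then left out if they had 2 or more UMIs over the macrophage, dendritic, natural killer and B cell genes, or any CD8 UMI. Cd68, H2-Aa and H2-Ab1 were not counted for this, and cells with fewer UMIs stayed in. Without these 502 and 707 cells the size differences were 3.48 for Ccl3, 2.71 for Ccl4 and 3.12 for Ccl5, and each still passed the test.

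Large clonotypes differed widely among themselves in the chemokines they transcribed. Each mouse had 19 clonotypes of 20 or more cells, 1092 cells in mouse 1 and 1511 in mouse 2. Over these, Ccl3 ran from 9.11 to 4005 CPM with a median of 349 in mouse 1, and from 27.3 to 3119 CPM with a median of 1205 in mouse 2. Ccl4 ran from 4.55 to 5299 CPM (median 2005) in mouse 1 and from 62.4 to 9054 CPM (median 2780) in mouse 2. Ccl5 ran from 815 to 46938 CPM (median 22098) in mouse 1 and from 4018 to 59013 CPM (median 25440) in mouse 2. Ccl3 and Ccl4 ordered the clonotypes in nearly the same way, with Spearman's rho of 0.85 and 0.87 over the 19 clonotypes of mice 1 and 2, whereas rho was 0.56 and 0.57 between Ccl3 and Ccl5 and 0.59 and 0.52 between Ccl4 and Ccl5. Clonotypes of a mouse share a library and a host, so these are descriptions.

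**Figure D2:**
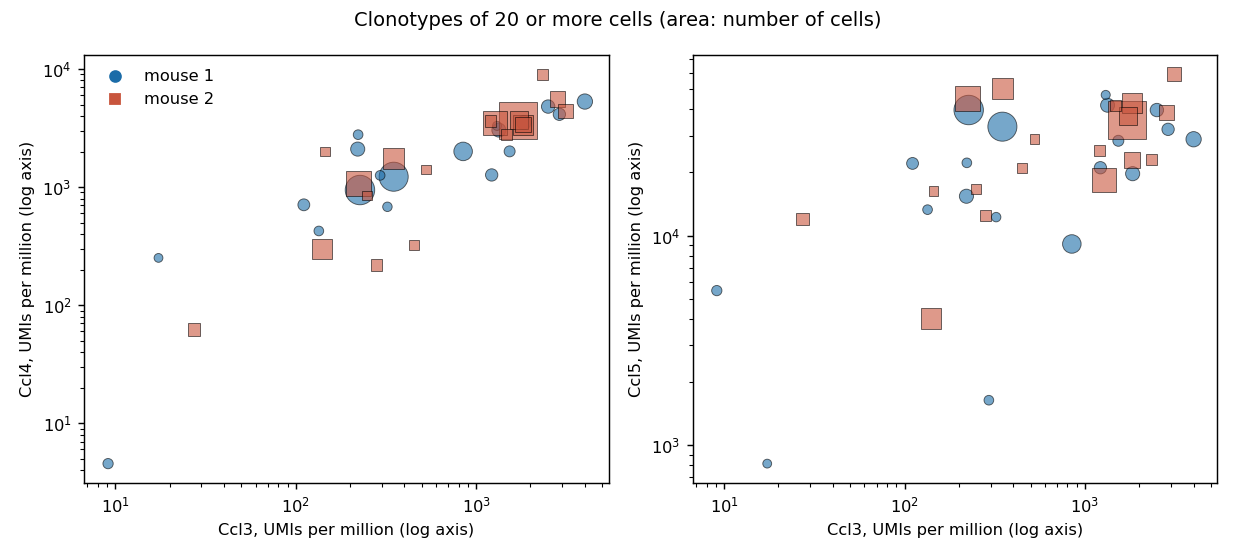
Ccl4 (left) and Ccl5 (right) against Ccl3, in CPM on log axes, for the 19 clonotypes of 20 or more cells of mouse 1 (circles) and of mouse 2 (squares), with area in proportion to the number of cells. Ccl3 and Ccl4 rise together (Spearman's rho 0.85 and 0.87), and clonotypes with high Ccl5 are found at both low and high Ccl3.

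The CDR3 sequences of the 3 largest clonotypes of each mouse and of some at these extremes are printed to identify them. They run 5′ to 3′ as assembled from the receptor reads. Lower case marks bases that match the germline V or J segment at either end (TRB locus, chromosome 6), and capitals mark the bases between them.

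mouse 1, TRBV31, 222 cells: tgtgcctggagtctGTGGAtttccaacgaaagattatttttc
mouse 1, TRBV31, 216 cells: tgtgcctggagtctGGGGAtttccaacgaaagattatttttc
mouse 1, TRBV14, 88 cells: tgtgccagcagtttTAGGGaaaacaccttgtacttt
mouse 1, TRBV14, 60 cells: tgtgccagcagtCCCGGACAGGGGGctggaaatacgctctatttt
mouse 1, TRBV13-3, 27 cells: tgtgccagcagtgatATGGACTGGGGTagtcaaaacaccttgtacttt
mouse 2, TRBV29, 366 cells: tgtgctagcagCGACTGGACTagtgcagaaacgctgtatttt
mouse 2, TRBV13-1, 158 cells: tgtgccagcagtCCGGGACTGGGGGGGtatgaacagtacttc
mouse 2, TRBV13-3, 147 cells: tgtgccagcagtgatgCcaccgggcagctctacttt
mouse 2, TRBV20, 53 cells: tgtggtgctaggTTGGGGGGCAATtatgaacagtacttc
mouse 2, TRBV23, 42 cells: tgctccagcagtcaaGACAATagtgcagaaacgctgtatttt

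The largest clonotypes of mouse 1, both TRBV31 with TRBJ1-4, differ by 1 base, T16G (counted from 1 at the 5′ end, the clonotype of 222 cells first). They had much Ccl5 and moderate Ccl3: 39754 and 33102 CPM of Ccl5, 944 and 1224 CPM of Ccl4, and 227 and 349 CPM of Ccl3 in the clonotypes of 222 and 216 cells. The third, TRBV14 with 88 cells, had 9116 CPM of Ccl5 with 846 CPM of Ccl3. In mouse 2 the largest, TRBV29 with 366 cells, had 1705 CPM of Ccl3, 3659 CPM of Ccl4 and 35701 CPM of Ccl5. TRBV13-1 with 158 cells had 44938 CPM of Ccl5 but 224 CPM of Ccl3, and TRBV13-3 with 147 cells had 18489 CPM of Ccl5 and 1271 CPM of Ccl3. High Ccl5 thus occurred with both low and high Ccl3.

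Ccl3 and Ccl4 were highest in mouse 1 in the TRBV14 clonotype of 60 cells (4005 and 5299 CPM) and lowest in the TRBV13-3 clonotype of 27 cells (9.11 and 4.55 CPM). In mouse 2 the TRBV20 clonotype of 53 cells, whose segment is not the one called Vβ20, was highest for Ccl3 and Ccl5 (3119 and 59013 CPM). A TRBV14 clonotype of 31 cells was highest for Ccl4 (9054 CPM), and the TRBV23 clonotype of 42 cells was lowest for Ccl3 and Ccl4 (27.3 and 62.4 CPM). Ccl5 was highest in mouse 1 in a TRBV20 clonotype of 21 cells (46938 CPM) and lowest in a TRBV26 clonotype of 20 cells (815 CPM), of whose cells 90.0% had a Foxp3 UMI. Ccl5 was lowest in mouse 2 in a TRBV2 clonotype of 103 cells (4018 CPM), of whose cells 0% had one.

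The genes that ordered the 19 large clonotypes of each mouse most like each member, among 6235 genes with at least 20 CPM and by the mean rho over both mice, were Nkg7 (0.88), Ccl4 (0.86), Rgs16 (0.85), Lag3 (0.84) and Ifng (0.84) for Ccl3. For Ccl4 they were Ccl3 (0.86), Nkg7 (0.80), Havcr2 (0.80), Lag3 (0.76) and Gem (0.76). Among those for Ccl5 were Tbc1d10c (0.80), Ppp1r18 (0.79), Irf2 (0.77) and Rcn1 (0.76). Nkg7 encodes a granule membrane protein of cytotoxic cells, Lag3 and Havcr2 encode inhibitory receptors and Ifng encodes interferon-γ. The lists of Ccl3 and Ccl4 share Nkg7 and Lag3 beside the 2 chemokines themselves, and the genes named here for Ccl5 are in neither.

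Lists of other genes of the chemokine system and of effector cells were read in the same comparison. Of 10 granule and storage genes tested, 7 were higher, 1 was lower and 2 did not pass in clonotypes of 20 or more cells against 1 cell, with a median log2 difference of 1.12 against 0.005 over all genes tested, of which 25.7% were called in either direction. Prf1 (perforin) rose by 2.96, Nkg7 by 2.62, Fasl (Fas ligand) by 2.39 and Gzmk (granzyme K) by 2.28. Of 8 regulators of effector cells, 6 were higher and 2 did not pass (median 0.88), with Eomes at 2.65, Zeb2 at 2.09 and Runx3 at 1.59. Of 15 receptor-signal and activation genes, 3 were higher, 8 lower and 4 did not pass (median -0.31): Nr4a2 (2.79) and Ifng (2.06) rose, while Il2 (-2.92) and Egr3 (-1.93) fell. Of the receptors, Ccr1 fell by 2.07 at levels below 2 CPM, and Ccr3 and Ccrl2 did not pass. Of 29 other chemokine ligands, 8 were tested, Xcl1 (lymphotactin) rose by 3.46 and 7 did not pass (median 0.60). Of 11 stress and dissociation genes tested, 0 were higher and 7 lower (median -0.26), beside the rise of the chemokines.

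Cells were also grouped into 14 clusters made without the 3 chemokine genes and without receptor segments, and the chemokines were then read in them as a description. Ccl5 was highest in cluster 8, led by Itgad, Wdr95 and Gzmk (49903 and 49338 CPM), and in cluster 6, led by Klra3, AC149091.1 and Adgrg1 with Cx3cr1 among its leading genes (45853 and 44665 CPM). At least 10 Ccl5 UMIs were found in 96.4% and 98.7% of cells of cluster 6. Ccl3 told these clusters apart: it stood at 2990 and 1888 CPM in cluster 6, which held 40.4% and 51.0% of all Ccl3 UMIs in 5.57% and 12.6% of cells, and at 511 and 582 CPM in cluster 8. Ccl4 stood at 6103 and 3737 CPM in cluster 6 and at 1644 and 1641 CPM in cluster 8.

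The highest Ccl4 was found elsewhere, in cluster 4, led by the receptor-signal genes Egr3 and Nr4a3 and by Il2. Its 93 and 96 cells, 1.55% and 1.52% of kept cells, had 13357 and 12233 CPM of Ccl4 and held 20.1% and 17.1% of all Ccl4 UMIs. They had 2575 and 3217 CPM of Ccl3, and 13750 and 14447 CPM of Ccl5. At the low end, cluster 3 (1714 and 1694 cells), led by Sostdc1, Il4 and Ces2c, had 7.31 and 7.08 CPM of Ccl3, 18.2 and 18.6 CPM of Ccl4, and 352 and 161 CPM of Ccl5. The naive-like cluster 1 had 5.10 and 4.57 CPM of Ccl3. The macrophage-like cluster 13 (C1qa, C1qb and C1qc; 27 and 56 kept cells) had 468 and 1689 CPM of Ccl3 and held 0.546% and 5.29% of all Ccl4 UMIs.

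**Figure D3:**
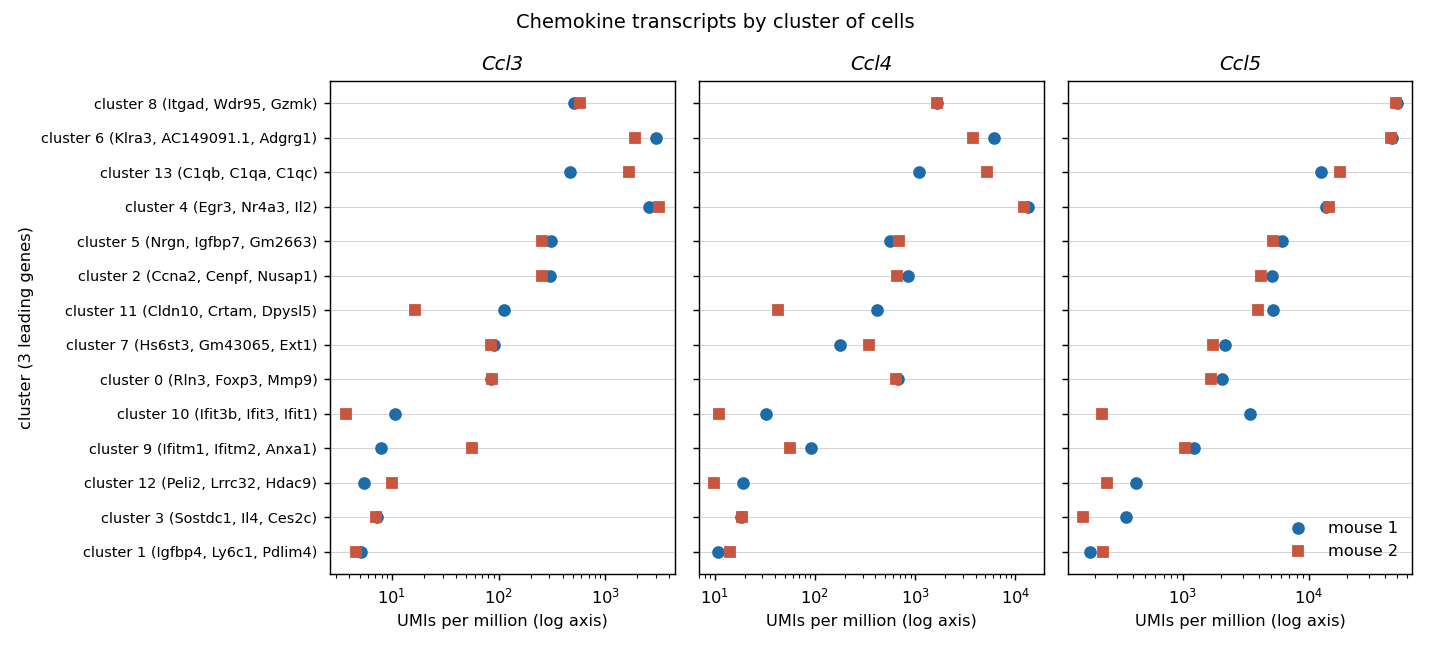
CPM (log axis) of each chemokine in 14 clusters, ordered by Ccl5 and named by their 3 leading genes; circles are mouse 1 and squares mouse 2. Clusters 6 and 8 have 44665 to 49903 CPM of Ccl5, and cluster 4 has 12233 to 13357 CPM of Ccl4.

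Within clusters 8 and 6, Ccl5 was already high in clonotypes of 1 cell. In cluster 8, clonotypes of 1, 2 to 4 and 5 or more cells had 43169, 47330 and 52323 CPM of Ccl5 in mouse 1 (137, 177 and 594 cells) and 37619, 44914 and 54703 CPM in mouse 2 (116, 128 and 403 cells). In cluster 6 they had 34089, 37349 and 47660 CPM in mouse 1 (16, 39 and 279 cells) and 49153, 50146 and 44337 CPM in mouse 2 (23, 23 and 750 cells), so the order was not the same in both mice. In cluster 3 the same sizes had 370, 316 and 351 CPM in mouse 1 and 153, 186 and 152 CPM in mouse 2. Cluster 4 was unlike these for Ccl4: clonotypes of 1, 2 to 4 and 5 or more cells had 7843, 8537 and 26493 CPM in mouse 1 (42, 26 and 25 cells) and 2555, 9777 and 23125 CPM in mouse 2 (32, 30 and 34 cells).

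Vβ3 cells had less of all 3 chemokines than cells with other V genes. Ccl3 stood at 203 and 231 CPM in Vβ3 cells of mice 1 and 2, and at 511 and 507 CPM in cells with other V genes. Ccl4 stood at 905 and 679 CPM in Vβ3 cells, against 1207 and 1258 CPM, and Ccl5 at 8242 and 6102 CPM in Vβ3 cells, against 14053 and 14377 CPM. Both mice were lower in Vβ3 cells for each gene. The log2 differences were -1.22 for Ccl3 (SE 0.14, adjusted p = 9.58e-05), -0.66 for Ccl4 (SE 0.10, adjusted p = 0.000735) and -1.01 for Ccl5 (SE 0.11, adjusted p = 5.61e-05) by edgeR over 12626 genes, of which 10.6% were called lower in Vβ3 cells. With DESeq2 the Ccl4 difference of -0.67 did not pass (adjusted p = 0.0545), nor did that of -0.63 without the mouse in the edgeR model (adjusted p = 0.12), and Ccl4 in mouse 1 alone and mouse 2 alone differed by -0.42 and -0.89. Vβ20 cells, with 195 and 109 CPM of Ccl3, 849 and 591 CPM of Ccl4 and 9993 and 6472 CPM of Ccl5, were also lower than cells with other V genes, by 1.72, 0.79 and 0.82 on the log2 scale (edgeR adjusted p = 2.74e-05, 0.000399 and 0.000422; 7.03% of genes called lower). Vβ3 and Vβ20 cells differed from each other by 0.50, 0.13 and -0.19, none of which passed (edgeR adjusted p = 0.97 for each; 0.0238% of genes called).

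These V class differences turned with the weight given to large clonotypes. In Vβ3 cells 3.84% and 3.01% lay in clonotypes of 20 or more, against 34.3% and 38.7% in cells with other V genes. Clonotypes of 1 cell made up 54.7% and 59.3% of Vβ3 cells, against 26.5% and 28.2%. With 1 cell drawn per clonotype, Vβ3 cells were higher for Ccl5 by 0.71 (edgeR adjusted p = 3.68e-06) and for Ccl4 by 0.64 (adjusted p = 0.0025), while Ccl3 differed by 0.33 without passing (adjusted p = 0.087). Only 1 such draw was made, and how far another would move these values was not tested. With every clonotype given equal weight, a choice made after seeing the data and with no test, the differences in mice 1 and 2 were 0.11 and -0.54 for Ccl3, 0.33 and -0.12 for Ccl4, and 0.55 and 0.21 for Ccl5, so the mice went opposite ways for Ccl3 and Ccl4. Clonotypes were defined by the TRB chain alone. The pooled values describe cells and the drawn values describe clonotypes.

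Read within a clonotype size, Ccl5 went in opposite directions. In clonotypes of 1 cell Ccl5 stood at 5059 and 3964 CPM in Vβ3 cells, against 1944 and 1861 CPM in cells with other V genes, a log2 difference of 1.22 (edgeR adjusted p = 0.000296). Ccl3 and Ccl4 differed by 0.89 and 0.93 there and did not pass (edgeR adjusted p = 0.28 and 0.17), and 19.1% of genes were called in either direction. Within mice 1 and 2 these differences were 2.06 and -0.37 for Ccl3, and 1.80 and 0.06 for Ccl4, with no test. In clonotypes of 2 to 4 cells only the Ccl5 difference of 0.74 passed (edgeR adjusted p = 0.0328; 6.04% of genes called). In clonotypes of 5 or more cells Ccl5 stood at 14040 and 15000.1 CPM in Vβ3 cells, against 23554 and 26936 CPM, a difference of -0.79 (edgeR adjusted p = 0.0397; 2.74% of genes called), while Ccl3 and Ccl4 at -0.51 and -0.13 did not pass. The median depth of clonotypes of 1 cell was 5365 and 6320 UMIs in Vβ3 cells, against 6510 and 7395.5 UMIs in cells with other V genes.

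**Figure D4:**
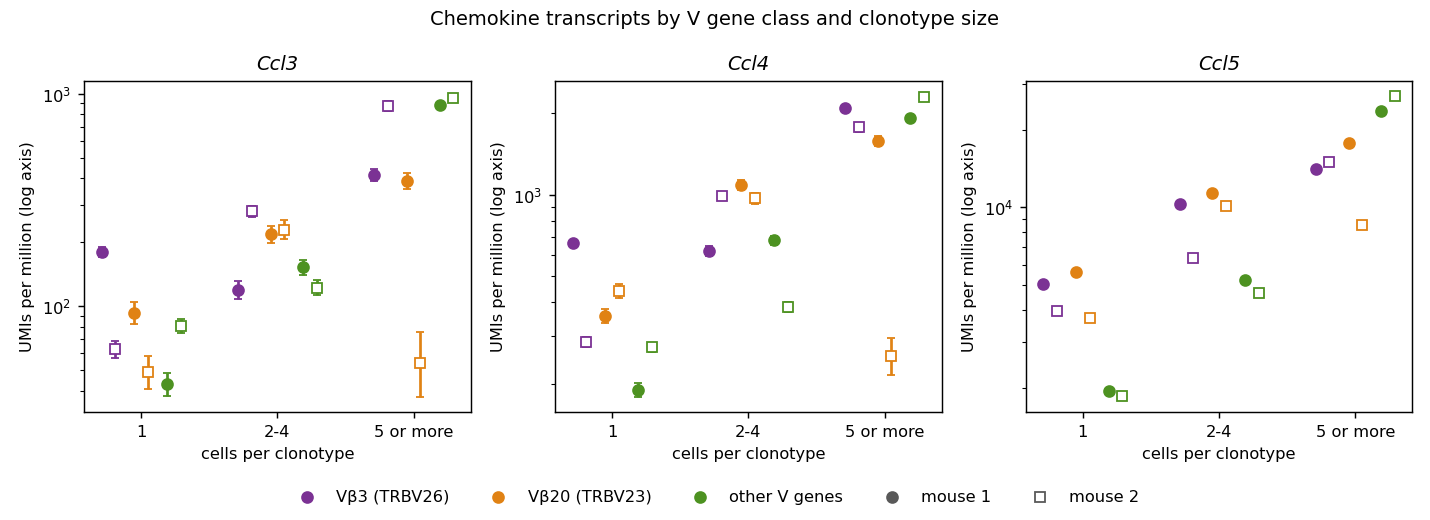
CPM (log axis) of each chemokine by number of cells per clonotype, for Vβ3, Vβ20 and other V genes; filled circles are mouse 1, open squares mouse 2, and bars are 95% Poisson intervals. Ccl5 in Vβ3 cells lies above that in cells with other V genes at 1 cell (5059 and 3964 against 1944 and 1861 CPM) and below it at 5 or more (14040 and 15000.1 against 23554 and 26936 CPM).

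The rise with clonotype size was itself smaller in Vβ3 cells for Ccl5. Clonotypes of 5 or more against 1 cell differed in Vβ3 cells by 2.45 for Ccl3, 2.11 for Ccl4 and 1.74 for Ccl5 (edgeR adjusted p = 0.0043, 0.0051 and 6.68e-05; 12.7% of genes called). The mice were apart for Ccl3, with 412 and 874 CPM in Vβ3 clonotypes of 5 or more, against 180 and 62.6 CPM in those of 1 cell, within-mouse log2 differences of 1.199 and 3.803. In mouse 2 the Vβ3 clonotype of 59 cells alone held 1030 Ccl3 UMIs at 2834 CPM, and its Vβ3 clonotypes of 5 to 19 cells stood at 383 CPM. In Vβ20 cells the differences were 1.86, 1.24 and 1.52, of which only Ccl5 passed (edgeR adjusted p = 0.11, 0.15 and 0.000597; 5.42% of genes called), and the mice were apart here too: Ccl3 in Vβ20 clonotypes of 5 or more stood at 389 CPM in mouse 1 (22 clonotypes) and at 53.9 CPM in mouse 2 (10 clonotypes). In cells with other V genes they were 3.86, 3.18 and 3.75 (edgeR adjusted p = 2.5e-05, 5.65e-05 and 1e-09; 25.2% of genes called). The difference of these size effects, Vβ3 minus other, was -2.01 for Ccl5 (SE 0.28, edgeR adjusted p = 0.000179) and did not pass for Ccl3 (-1.40, SE 0.72, adjusted p = 0.24) or Ccl4 (-1.06, SE 0.63, adjusted p = 0.31), where 11.6% of genes were called. Within mice 1 and 2 this difference was -2.13 and -1.94 for Ccl5, and -3.17 and 0.24 for Ccl3, so the mice went opposite ways for Ccl3.

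Across the 12 V genes with at least 100 kept cells in each mouse, levels differed widely. Ccl3 was highest in TRBV14 in both mice (1634 and 1495 CPM), where 84.1% and 73.5% of cells lay in clonotypes of 20 or more. Without those clonotypes Ccl3 in TRBV14 stood at 145 and 463 CPM. Ccl4 was highest in TRBV16 in mouse 1 (2841 CPM, next to 2819 CPM in TRBV14) and in TRBV14 in mouse 2 (4008 CPM). Of TRBV16 cells 28.7% and 22.6% lay in clonotypes of 20 or more, and without those Ccl4 in TRBV16 stood at 3270 and 1178 CPM. Ccl5 was highest in TRBV31 in mouse 1 (32948 CPM) and in TRBV14 in mouse 2 (25775 CPM), and without the large clonotypes these were 16193 and 7613 CPM. Ccl3 was lowest in TRBV19 in mouse 1 (77.5 CPM) and in TRBV2 in mouse 2 (74.7 CPM). TRBV2 stood at 567 CPM of Ccl3 in mouse 1, so the order of V genes was not the same in the 2 mice. Vβ3 itself (TRBV26) stood at 209 and 160 CPM of Ccl3 and 7856 and 5203 CPM of Ccl5 without its large clonotypes.

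The same lists were read for the V class. In Vβ3 cells against cells with other V genes, 2 of 10 granule and storage genes were higher and 8 lower, with a median log2 difference of -0.63 against 0.002 over all genes tested, of which 19.4% were called in either direction. Gzma (granzyme A) fell by 2.17, Prf1 by 1.51 and Nkg7 by 1.14. Of 8 regulators, 5 were lower and 3 did not pass (median -0.26), with Eomes at -1.14 and Runx3 at -1.10. Of 15 activation genes 5 were higher and 4 lower (median 0.12), with Egr3 at 1.09 and Tnf at 0.72 higher, and Nr4a2 at -1.75 and Tnfrsf9 at -1.20 lower. Of the receptors, Ccrl2 (-0.82) was lower, and among 7 other chemokine ligands tested Xcl1 (-3.09) and Ccl1 (-1.69) were lower and Cxcl10 (1.02) was higher. Of 11 stress genes 1 was higher and 0 lower (median 0.08). The natural killer cell markers summed to 17.3 and 19.1 CPM in Vβ3 cells, against 29.8 and 46.3 CPM in cells with other V genes, and their part in the chemokine difference was not tested.

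Foxp3-positive cells had less Ccl5, Ccl3 and Ccl4 than Foxp3-negative cells, and the gap was widest for Ccl5. Ccl5 stood at 2198 and 2095 CPM in the 919 and 1146 Foxp3-positive cells, and at 13603 and 13309 CPM in the 5074 and 5186 Foxp3-negative cells. Ccl3 stood at 120 and 99.6 CPM in Foxp3-positive cells, against 414 and 452 CPM, and Ccl4 at 705 and 569 CPM, against 1128 and 1124 CPM. Both mice were lower in Foxp3-positive cells for each gene. The log2 differences were -2.64 for Ccl5 (SE 0.06), -1.98 for Ccl3 (SE 0.06) and -0.83 for Ccl4 (SE 0.05) by edgeR over 13065 genes, of which 20.4% were called lower. This fit had 4 sums and 1 residual degree of freedom, and edgeR gave every gene the trended spread, so its adjusted p-values (0 as returned for Ccl5, 6.35e-233 for Ccl3 and 5.13e-52 for Ccl4) carry no weight of the genes' own spread. Without the mouse in the model they were 1.35e-06, 1.23e-05 and 0.000997.

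Detection did not follow the level for Ccl5. A Ccl5 UMI was found in 82.7% and 76.9% of Foxp3-positive cells, against 81.4% and 71.5% of Foxp3-negative cells, at median depths of 6338 and 6597.5 UMIs, against 5522 and 6166 UMIs. Foxp3-positive cells that had any Ccl5 UMI carried 20.7 and 21.8 Ccl5 UMIs on average. Foxp3-negative cells that had any carried 104 and 128. At least 10 Ccl5 UMIs were found in 28.8% and 30.1% of Foxp3-positive cells, against 39.6% and 38.0% of Foxp3-negative cells. The gap thus lay mainly in the number of UMIs per cell that had any. For Ccl3, 13.7% and 14.6% of Foxp3-positive cells had a UMI, against 23.8% and 26.1%.

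The Foxp3 difference depended on clonotype size, most of all for Ccl4. In clonotypes of 1 cell Ccl4 stood at 435 and 632 CPM in Foxp3-positive cells, against 426 and 211 CPM in Foxp3-negative cells, and was called higher by 0.80 (edgeR adjusted p = 0.025), though mouse 1 showed nearly equal levels. Ccl5 was lower there by 1.39 (edgeR adjusted p = 9.83e-05), Ccl3 at -0.42 did not pass (adjusted p = 0.32), and 33.2% of genes were called. In clonotypes of 2 to 4 cells only Ccl5 passed, at -2.58 (edgeR adjusted p = 2.05e-07; 27.1% of genes called), with Ccl3 at -0.68 (adjusted p = 0.093) and Ccl4 at 0.02 (adjusted p = 0.97). In clonotypes of 5 or more cells all 3 were lower in Foxp3-positive cells, Ccl3 by 2.60, Ccl4 by 1.90 and Ccl5 by 2.64 (edgeR adjusted p = 2.19e-06, 4.25e-05 and 1.8e-07; 23.2% of genes called).

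The rise with clonotype size was smaller in Foxp3-positive cells. Clonotypes of 5 or more against 1 cell differed in Foxp3-positive cells by 1.15 for Ccl3 and 0.18 for Ccl4, neither of which passed (edgeR adjusted p = 0.15 and 0.85), and by 1.49 for Ccl5 (adjusted p = 0.0054), where 0.779% of genes were called. The Ccl5 difference was 0.64 within mouse 1 (3092 against 1980 CPM) and 2.24 within mouse 2 (5302 against 1124 CPM). In mouse 2, 19 Foxp3-positive cells of clonotypes of 20 or more held 5267 of the 9589 Ccl5 UMIs at 35716 CPM, and the 190 of clonotypes of 5 to 19 stood at 2602 CPM. In Foxp3-negative cells they differed by 3.33, 2.88 and 2.73 (edgeR adjusted p = 4.31e-08, 3.74e-07 and 1.21e-07; 29.9% of genes called), with 2.81 and 3.94 for Ccl3 and 2.32 and 3.49 for Ccl4 within mice 1 and 2. The difference of the size effects, Foxp3-positive minus Foxp3-negative, was -2.18 for Ccl3 (adjusted p = 0.0043), -2.70 for Ccl4 (adjusted p = 0.000431) and -1.24 for Ccl5 (adjusted p = 0.0216) by edgeR, and all 3 passed, against 6.46% of all genes. The size of each rests on which mouse is read: within mice 1 and 2 it was -1.45 and -2.94 for Ccl3, -1.45 and -3.97 for Ccl4, and -1.83 and -0.73 for Ccl5, the last with the 19 cells above in mouse 2.

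**Figure D5:**
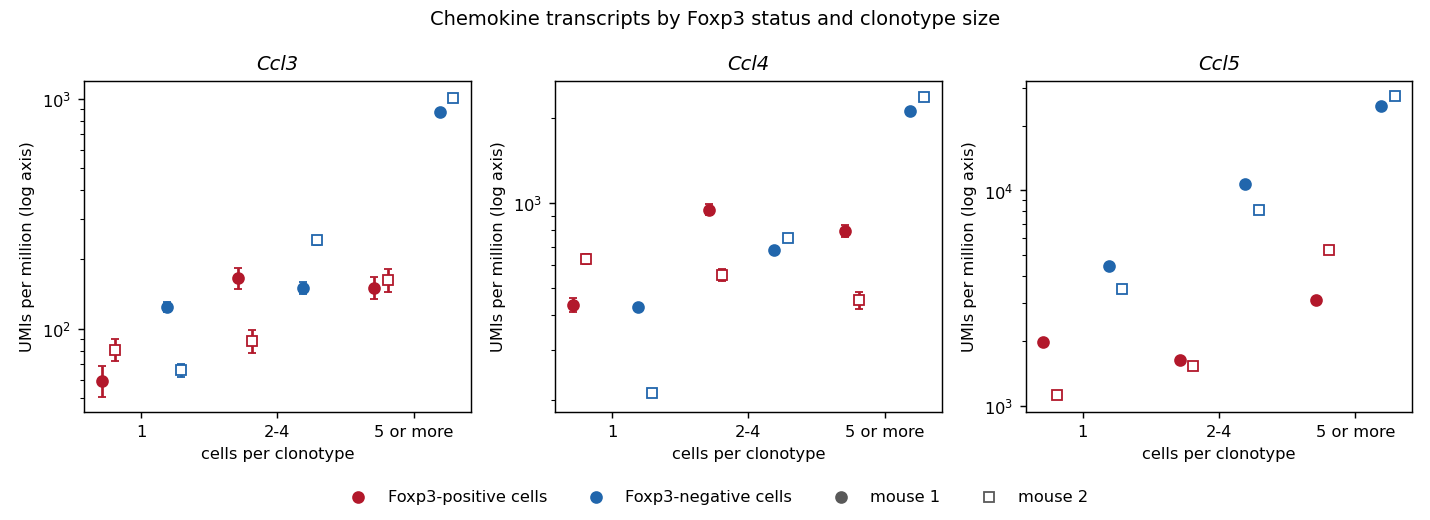
CPM (log axis) of each chemokine by number of cells per clonotype in Foxp3-positive and Foxp3-negative cells; filled circles are mouse 1, open squares mouse 2, and bars are 95% Poisson intervals. At 5 or more cells Ccl4 stands at 795 and 452 CPM in Foxp3-positive cells, against 2124 and 2374 CPM in Foxp3-negative cells, while at 1 cell it stands at 435 and 632 CPM, against 426 and 211 CPM.

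When clonotypes rather than cells were counted, Ccl4 turned round in this comparison too. With 1 cell drawn per clonotype and Foxp3 status, Ccl4 was higher in Foxp3-positive cells by 0.55 (edgeR adjusted p = 4e-08). Ccl3 at -0.18 did not pass (adjusted p = 0.056). This fit again had 4 sums and 1 residual degree of freedom, so both p-values hold little of the genes' own spread. Only 1 draw was made, and how far another draw would move these values was not tested. With equal weight per clonotype, Ccl4 differed by 0.65 in mouse 1 and 1.17 in mouse 2, Ccl5 by -1.10 on average, and Ccl3 by -0.10 and 0.10 in mice 1 and 2, with no test. The natural killer cell markers summed to 5.18 and 6.45 CPM in Foxp3-positive cells, against 28.9 and 42.8 CPM in Foxp3-negative cells, and the macrophage markers to 20.01 and 19.67 CPM, against 39.5 and 42.5 CPM; their part in the chemokine difference was not tested.

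The Foxp3 difference also varied with the V gene class. In Vβ3 cells Foxp3-positive cells were lower by 1.19 for Ccl3 and 2.25 for Ccl5 (edgeR adjusted p = 0.0070 and 1.09e-08), Ccl4 at 0.04 did not pass (adjusted p = 0.91), and 28.3% of genes were called. In Vβ20 cells Ccl5 was lower by 1.90 and Ccl4 was called higher by 0.73 (edgeR adjusted p = 3.15e-07 and 0.0429; 15.6% of genes called), with Ccl4 at 1714 and 591 CPM in the 83 and 87 Foxp3-positive cells, against 728 and 591 CPM in Foxp3-negative cells, so that mouse 2 showed equal levels. In cells with other V genes all 3 were lower, by 2.72, 1.58 and 3.02 for Ccl3, Ccl4 and Ccl5 (edgeR adjusted p = 1.11e-07, 1.29e-05 and 1.2e-10; 31.8% of genes called). The difference of the Foxp3 effects, Vβ3 minus other, was 1.53 for Ccl3 (edgeR adjusted p = 0.0464) and 1.62 for Ccl4 (adjusted p = 0.0053), and 0.77 for Ccl5 did not pass (adjusted p = 0.079); 3.93% of genes were called. Within mice 1 and 2 it was 0.96 and 1.75 for Ccl3, and 0.95 and 2.13 for Ccl4.

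Set the other way, the V class difference was seen in Foxp3-negative cells. There Vβ3 cells were lower than cells with other V genes by 1.44 for Ccl3, 0.93 for Ccl4 and 1.19 for Ccl5 (edgeR adjusted p = 0.000167, 0.0037 and 3.52e-05; 19.7% of genes called). In Foxp3-positive cells the differences were 0.09, 0.69 and -0.42, none of which passed (edgeR adjusted p = 0.98, 0.29 and 0.45; 0.435% of genes called). The difference between these is the same quantity as that of the Foxp3 effects above. Clonotype size was not held equal in this fit. Foxp3-negative cells with other V genes numbered 2291 in 710 clonotypes of mouse 1 and 2842 in 893 of mouse 2. Those with Vβ3 numbered 1907 in 1359 and 1706 in 1277. Foxp3-positive cells with other V genes numbered 659 in 430 and 805 in 534, and with Vβ3 177 in 108 and 254 in 165. The part of clonotype size in this difference was not tested.

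The same lists were read for the Foxp3 status, where 42.7% of all genes tested were called in either direction. Of the receptors, Ccrl2 was higher in Foxp3-positive cells by 2.05, Ccr3 by 2.79 and Ccr1 by 1.79, and Ccr3 and Ccr1 stood below 9 CPM. Of 10 other chemokine ligands tested, 2 were higher and 5 lower (median -0.48 against -0.010 over all genes), with Xcl1 at -4.14. Of 10 granule genes 3 were higher and 7 lower (median -0.89), with Gzmb (granzyme B) at 1.54 and Srgn, the granule proteoglycan serglycin, at 1.04 higher, and Gzmk at -3.16 lower. Of 8 regulators 3 were higher and 5 lower (median -0.88), with Prdm1 at 1.496 higher and Eomes at -2.999 lower. Of 15 activation genes 7 were higher and 4 lower (median 0.10), with Tnfrsf9 at 2.80 and Nr4a1 at 2.13 higher and Ifng at -2.25 lower. Of 11 stress genes 4 were higher and 4 lower (median 0.04). These lists share the Foxp3 fit and its lack of gene-wise spread.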

How the data were processed

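Transcript counts came from the deposited filtered matrices of UMI counts per gene and cell barcode, made by the authors with Cell Ranger 7.0.1, per the file headers; the submitters' processing notes name builds mm10 and GRCm38. The deposited receptor contig tables gave the V gene, J gene and CDR3 of each cell. Barcodes numbered 9996 in mouse 1 and 9733 in mouse 2; 708 and 702 cells with more than 1 TRB contig were left out. Doublets were not called otherwise. UMIs were summed per mouse and class and tested with edgeR 4.0.16 (TMM, quasi-likelihood, R 4.3.3), with the mouse as a block, since classes of a mouse come from the same library. Adjusted p-values are Benjamini-Hochberg values over all genes tested, and a gene passed below 0.05. DESeq2 1.42.0 was an alternative. On simulated data for the size comparison (12233 genes), 80.0% of 50 genes changed 1.5-fold and 100% of 50 genes changed 4-fold were recovered. The simulation gave every gene the same median spread and held no mouse effect, and only well-counted genes were changed. It therefore does not give the recovery for genes that vary as much as the members. Clusters were made with scanpy 1.11.5 (2000 variable genes, 30 components, 15 neighbours, resolution 0.6). Genes named beyond the members were those of the lists, and the 5 most alike in rank over large clonotypes, of which some are not reported here. The members and the lists were chosen with earlier results of these data known. Shares carry exact intervals, and UMIs of a class are not independent of its clonotypes.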

Additional observations from a re-analysis of the deposited data

Results flagged for a closer look

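The rise of Ccl5 from clonotypes of 1 cell to those of 5 or more cells differed between V gene classes, with a log2 difference of the effects, Vβ3 minus other, of -2.01 by a test of that difference. The Foxp3 effect differed between the same classes for Ccl3 (1.53, Vβ3 minus other) and Ccl4 (1.62), in a fit that did not hold clonotype size equal. The clonotype size effect differed between Foxp3-positive and Foxp3-negative cells for Ccl3 (-2.18), Ccl4 (-2.70) and Ccl5 (-1.24). Within mice 1 and 2 these were -1.45 and -2.94, -1.45 and -3.97, and -1.83 and -0.73, with no test.

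Barcodes with no receptor contig, which entered no comparison, also held chemokine UMIs above the level that 3 counts would give. That level is only 0.125 and 0.128 CPM in mice 1 and 2, so passing it says little for genes as high as these. There were 2901 such barcodes in mouse 1 and 2405 in mouse 2. Ccl3 stood at 487 and 358 CPM in them, Ccl4 at 1157 and 747 CPM, and Ccl5 at 10225 and 8605 CPM. In all kept cells these were 360 and 380 CPM, 1050 and 1011 CPM, and 11498 and 11018 CPM.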

How the results depend on the processing

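Of 149 values recomputed under alternatives, 124 kept their direction and side of the threshold or moved by less than the mice differed. Counts of genes called were among these where they stayed within a set fold of the main count. Values with a mouse left out could hardly fail. Their limit was the SD of the 2 mice, and the main value lies near the middle of the mice. Their place among the 124 therefore says little. Of the rest, 14 moved further, 8 reversed direction and 3 no longer passed. With 1 cell per clonotype, Vβ3 against other was 0.33 for Ccl3, 0.64 for Ccl4 and 0.71 for Ccl5, and Foxp3-positive against negative was -0.18 for Ccl3 and 0.55 for Ccl4. With clonotypes weighted equally, chosen after seeing the data, the Vβ3 differences were -0.22, 0.11 and 0.38 and the Foxp3 differences 0.00, 0.91 and -1.10 for Ccl3, Ccl4 and Ccl5, with the mice of opposite sign for Ccl3 and Ccl4 in Vβ3 cells (0.11 and -0.54, 0.33 and -0.12) and for Ccl3 by Foxp3 (-0.10 and 0.10). Both alternatives give large clonotypes less weight by construction, and the values with 1 cell per clonotype rest on 1 random draw. Without the replicate block (the mouse), Ccl4 in Vβ3 cells was -0.63 (adjusted p = 0.12) and with DESeq2 -0.67 (adjusted p = 0.0545); the cause was not tested. Genes called by size, V class and Foxp3 numbered 3148, 2449 and 5582, against 1997, 569 and 3118 without the replicate block and 1800, 867 and 2540 with DESeq2. Detected shares of 23.1%, 29.8% and 77.0% for Ccl3, Ccl4 and Ccl5 were 16.5%, 22.6% and 61.5% in thinned cells and 4.90%, 9.08% and 37.2% at 10 or more UMIs. Leaving out a mouse gave 2.87 to 4.12 for Ccl3, 2.14 to 3.19 for Ccl4 and 2.72 to 3.43 for Ccl5 by size, -1.33 to -1.13, -0.89 to -0.42 and -1.24 to -0.77 for Vβ3, and -2.17 to -1.78, -0.98 to -0.68 and -2.67 to -2.63 for Foxp3, each with no test. With 2 mice, no alternative adds replication. Counts of genes called have no value with a mouse left out. CDR3 amino acids in place of nucleotides were run only for clonotype size, and 1 cell per clonotype only for V class and Foxp3.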
